A study of Mus musculus with 6 samples.

Results

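The insulin-like growth factor (IGF) family was followed here through 10 genes chosen by symbol: the ligands Igf1 and Igf2, the receptors Igf1r and Igf2r, and the binding proteins Igfbp2 to Igfbp7. All 10 of these symbols were found among the 31276 in the deposited count table, and all 10 were among the 16592 genes that passed the filter on low counts. Brain RNA of C57BL/6 mice at postnatal day 14 was compared between a wild-type group (WT, 3 samples) and a group named PRMT5 olig2cre KO in the labels (KO, 3 samples), a knockout of the arginine methyltransferase gene Prmt5 through Cre recombinase driven by Olig2, a gene of the oligodendrocyte lineage. The labels give no further allele, no Cre status for the wild type, no sex, and no statement that each sample was a separate animal, so the p-values rest on sample-to-sample spread that may be partly technical. Cells that have not expressed Olig2 keep Prmt5 in this model.

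IGF-1 and IGF-2 are secreted growth factors that signal through the tyrosine kinase IGF-1 receptor, while the IGF-2 receptor, also the mannose-6-phosphate receptor, takes up IGF-2 for breakdown in lysosomes. IGF-binding proteins hold the ligands outside cells and can either block or prolong their action. In the brain, Igf2 is known as a product of the meninges and choroid plexus, Igf1 of neurons and microglia, and IGF-1 is known to promote the survival and myelination of oligodendrocytes.

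Libraries held 15089140 to 16872925 counts. Levels are given as CPM, the count scaled to a common library total after correction for library composition. Each log2 fold change sets KO over WT. Prmt5 itself averaged 91.0 ± 0.751 CPM in the WT libraries and 72.7 ± 7.66 CPM in the KO libraries (SD, n = 3). All KO libraries were lower, and the edgeR adjusted p was 0.232 (0.0379 with the replicate number as a block). The block was chosen from these same counts and not from the labels, so calls made only with it, here and below, are not independent support. Defining genes of neurons (Slc17a7, Gad1), astrocytes (Aqp4), microglia (Cx3cr1) and vessels (Cldn5) were present in all 6 libraries. Transcripts of cerebellar granule cells (Gabra6 above 5 CPM) were present in WT replicate 1 and KO replicates 1 and 3 only, and Xist was high in WT replicate 2 and KO replicates 1 and 2, so cerebellar content and this marker of female cells differed within both groups. Of all genes tested, 1.2% were called in KO against WT (edgeR, adjusted p under 0.05), 0.241% as higher and 0.958% as lower.

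Igfbp2 and Igfbp5 are neighbours in the genome and are shown first because both stood higher in every KO library. Igfbp4 on chromosome 11 did so too, by a smaller margin, so this is not particular to the pair. Igfbp2 lies on the plus strand of chromosome 1 at 72824503 to 72852474 and Igfbp5 on the minus strand at 72857932 to 72874884 (mm10, GENCODE M21), so that they point towards each other with 5457 bp between their ends. The 250 bases before each RefSeq start site (GRCm38.p6) follow, 5′ to 3′ on the strand of the gene, with capitals marking matches on either strand to 5 motifs: the TATA box TATAAA with its variant TATTTAA, the GC box GGGCGG, the CCAAT box and the E-box CACGTG. No match in these windows overlapped another.
Igfbp2, chr1:72824230-72824479, plus strand: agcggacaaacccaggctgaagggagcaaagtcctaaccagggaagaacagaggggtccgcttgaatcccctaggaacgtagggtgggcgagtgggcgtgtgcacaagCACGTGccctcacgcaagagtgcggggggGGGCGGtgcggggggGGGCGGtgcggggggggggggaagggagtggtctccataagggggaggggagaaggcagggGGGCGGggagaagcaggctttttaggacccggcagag
Igfbp5, chr1:72874866-72875115, minus strand: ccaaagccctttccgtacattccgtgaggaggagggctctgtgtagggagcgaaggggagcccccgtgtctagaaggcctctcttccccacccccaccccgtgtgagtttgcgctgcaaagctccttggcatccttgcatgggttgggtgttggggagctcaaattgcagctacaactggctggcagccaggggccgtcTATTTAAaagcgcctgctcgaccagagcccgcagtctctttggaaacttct

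The windows of these neighbours shared no motif of the 5. The Igfbp2 window held 3 GGGCGG and 1 CACGTG, with 67.2% G and C and 14 CpG sites. Igfbp5 had 1 TATTTAA near its start, 58.8% G and C and 10 CpG sites. Over 32851 RefSeq windows of the same length, 32.7% held GGGCGG, 6.02% CACGTG and 4.18% TATTTAA, and the median was 52.4% G and C and 6 CpG sites. Igfbp2 has a further RefSeq start downstream, whose window held none of the 5. Igf2 has 4 RefSeq start sites on chromosome 7. Their windows ranged from 47.6% to 68.8% G and C, and the most downstream of them held 2 GGGCGG and 1 CCAAT. Counts per gene do not show which start was used.

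Igfbp2, a binding protein made in the brain by astrocytes, choroid plexus and meninges, rose in KO. In WT replicates 1 to 3 its level was 66.0, 61.8 and 55.2 CPM, and in KO replicates 1 to 3 it was 98.8, 83.5 and 88.0 CPM. Each KO library lay above each WT library. The WT mean was 61.0 ± 5.41 CPM and the KO mean 90.1 ± 7.85 CPM (SD, n = 3). This is a rise of 1.48-fold, with a log2 fold change of 0.56 (SE 0.102) and an adjusted p of 0.0231 (edgeR, quasi-likelihood test). Igfbp2 was the only 1 of the 10 genes called, and 3 of the 10 had an unadjusted p under 0.05, against 9.67% of all genes tested. DESeq2 called 2 of the 10, Igfbp2 and Igf2, against 1.89% of the genes in its test. The edgeR call of Igfbp2 ended without WT replicate 2 (adjusted p = 0.133), WT replicate 3 (0.179) or KO replicate 3 (0.0583), with a term for sex (0.075), with offsets adjusted for exonic length (0.0671), and in the libraries with cerebellar transcripts alone (0.50, adjusted p = 1). The log2 fold change stayed between 0.47 and 0.62 under all 25 alternatives.

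**Figure D1:**
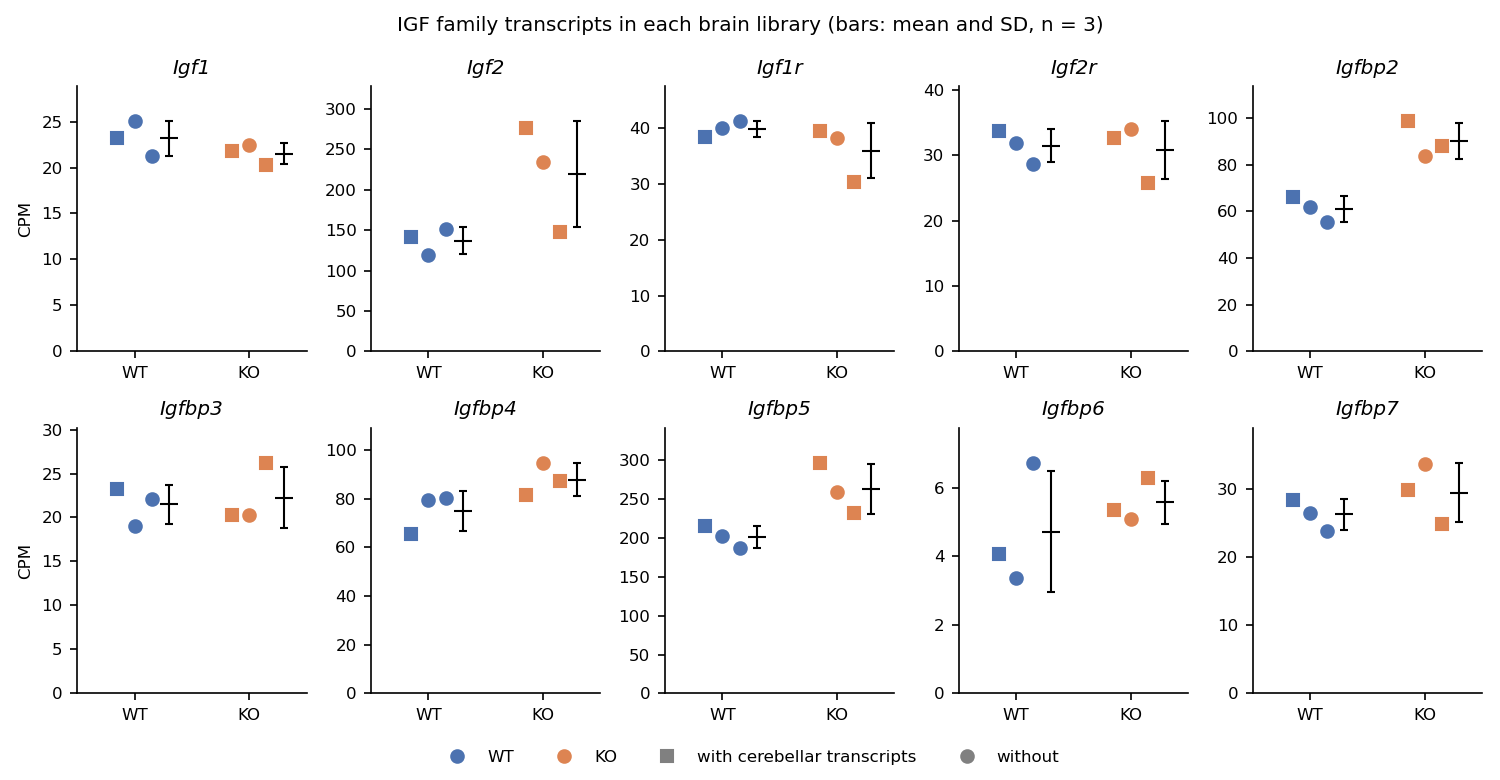
Level in CPM (y axis, from 0) of each of the 10 genes in every library, WT in blue and KO in orange, with squares for libraries that hold cerebellar transcripts and bars for the mean and SD of 3 samples. Igfbp2, Igfbp5 and, by a small margin, Igfbp4 show separate groups, and the KO libraries of Igf2 range from 147.5 to 276.7 CPM.

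Igfbp5, whose product also binds to extracellular matrix, was the most abundant of the binding protein transcripts in CPM. Its levels were 215, 203 and 187 CPM in WT replicates 1 to 3 and 297, 258.5 and 233 CPM in KO replicates 1 to 3. The KO libraries were again all higher. Its log2 fold change was 0.38 (SE 0.109) with an edgeR adjusted p of 0.212. With the replicate number as a block it was called (0.38, adjusted p = 0.0093), and DESeq2 gave 0.0534. The block called 3.41% of all genes tested (1.03% as higher), and 3 of the 10 here: Igf2, Igfbp2 and Igfbp5, all of them higher.

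Igfbp4 (chromosome 11, 99041244 to 99054392, plus strand) encodes an inhibitor of IGF action that is cut by the protease encoded by Pappa. Its levels were 65.3, 79.3 and 80.2 CPM in WT and 81.6, 94.8 and 87.0 CPM in KO. The groups did not overlap, by a margin between WT replicate 3 and KO replicate 1 that was smaller than the SD of either group. The log2 fold change was 0.23 (SE 0.105, edgeR adjusted p = 0.523, and 0.165 with the block). Groups did not overlap for 3 of the 10 genes (Igfbp2, Igfbp4 and Igfbp5), all higher in KO, against 16% of all genes tested in either direction, 8.02% higher and 7.99% lower.

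The remaining binding proteins had overlapping groups. Igfbp7 (chromosome 5, 77349240 to 77408041, minus strand), a protein of blood vessel walls with low affinity for IGFs, ranged from 23.8 to 28.4 CPM in WT and from 24.9 to 33.6 CPM in KO (log2 fold change 0.17, 95% interval -0.21 to 0.55 on 4 residual degrees of freedom). Of its exonic sequence, 7.03% overlaps Polr2b on the opposite strand, so reads there may be shared. Igfbp3 (chromosome 11, 7206086 to 7213923, minus strand), the main carrier in blood, ranged from 19.1 to 23.2 CPM in WT and 20.3 to 26.2 CPM in KO (0.05, interval -0.35 to 0.45), and its sign changed with the term for cerebellar transcripts (-0.01). Igfbp6 (chromosome 15, 102144362 to 102149511, plus strand), which prefers IGF-2, was the scarcest at 3.38 to 6.74 CPM in WT and 5.10 to 6.29 CPM in KO (0.24, interval -0.50 to 0.97). EdgeR gave adjusted p of 0.734, 0.939 and 0.817 for Igfbp7, Igfbp3 and Igfbp6.

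Among the ligands, Igf2 had the largest fold change of the 10 genes, with KO libraries that lay far apart. Igf2 (chromosome 7, 142650766 to 142666816, minus strand) had levels of 141, 119 and 151 CPM in WT replicates 1 to 3, and of 277, 235 and 147.5 CPM in KO replicates 1 to 3. KO replicates 1 and 2 were above all WT libraries, while KO replicate 3 lay within the WT range. The log2 fold change was 0.68 (SE 0.191), 1.60-fold, with an edgeR adjusted p of 0.201. It was called with the block (0.64, adjusted p = 0.00817) and by DESeq2 (0.0108), although the log2 ratios of KO to WT in the same-numbered pairs were 0.97, 0.98 and -0.04. Without KO replicate 3 the edgeR fit called it at 0.90 (adjusted p = 0.00906), and without each other library it was not called (0.225 to 0.635). With the cerebellum term and the block together its value was 0.98, but that fit leaves out pair 3 in effect, since only its KO library holds cerebellar transcripts. In the annotation 62.8% of the Igf2 exonic sequence also belongs to the gene model Gm49394 on the same strand, and 1.71% overlaps Igf2os on the other, so these reads cannot be told apart.

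Igf1 (chromosome 10, 87858265 to 87937042, plus strand) was not called. Its levels were 23.2, 25.1 and 21.2 CPM in WT and 21.8, 22.5 and 20.3 CPM in KO. The groups overlapped, and the log2 fold change was -0.11 (95% interval -0.44 to 0.23, edgeR adjusted p = 0.818). Its value was negative under all 25 alternatives, from -0.17 to -0.03, and it was called in none of them.

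Neither receptor was called. Igf1r (chromosome 7, 67952827 to 68233668, plus strand), which carries the signal of both ligands, had levels of 38.4, 40.0 and 41.2 CPM in WT and 39.4, 38.1 and 30.3 CPM in KO. KO replicate 3 was the lowest, and the other KO libraries lay close to the WT range. Its log2 fold change was -0.15 (95% interval -0.48 to 0.18, edgeR adjusted p = 0.729). Igf2r (chromosome 17, 12682406 to 12769664, minus strand), the clearance receptor, stood at 33.7, 31.9 and 28.7 CPM in WT and 32.7, 34.1 and 25.7 CPM in KO, again lowest in KO replicate 3. Its value was -0.03 (interval -0.40 to 0.34, edgeR adjusted p = 0.96), and 0.0014 with total counts as the only scaling, so no direction is given.

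**Figure D2:**
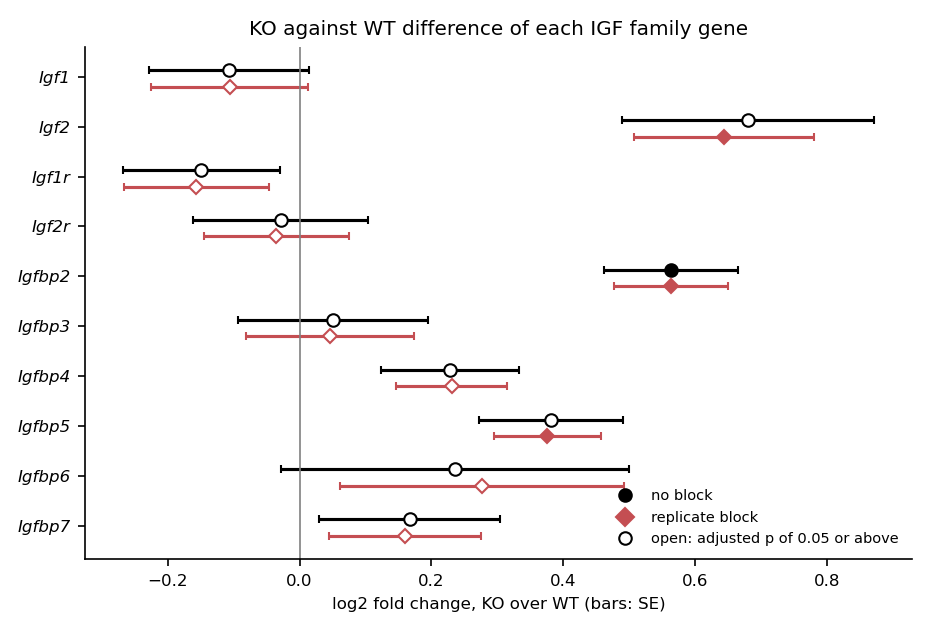
Log2 fold change of KO over WT (x axis) with its SE for each gene, without a block (circles) and with the replicate number as a block (diamonds), filled where the adjusted p was under 0.05. Igfbp2 is filled in both fits at 0.56, and Igf2 and Igfbp5 only with the block.

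Over the 10 genes the median log2 fold change was 0.20, against 0.01 over all genes tested, with 7 positive values and 3 negative. The summed level of the 6 binding proteins was 402, 393 and 375 CPM in WT replicates 1 to 3 and 533, 496 and 465 CPM in KO replicates 1 to 3. Igfbp5, Igfbp2 and Igfbp4 made up most of that sum in every library.

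Levels were compared between genes per exonic length, as RPKM, the CPM divided by the exonic length in kilobases. In WT, Igfbp5 (33.6 ± 2.35 RPKM, SD, n = 3) and Igfbp2 (33.0 ± 2.93) had overlapping ranges at the top. Igf2 (23.9 ± 2.90) and Igfbp7 (21.7 ± 1.91) came next and overlapped each other, followed by Igfbp4 (17 ± 1.89) and Igfbp3 (6.86 ± 0.692), which stood apart from their neighbours. Igfbp6 (4.25 ± 1.60) overlapped Igf2r (3.38 ± 0.274), and Igf1r (2.37 ± 0.0856) overlapped Igf1 (2.34 ± 0.194) at the bottom. In KO, Igfbp2 (48.8 ± 4.25 RPKM) was ahead of Igfbp5 (43.7 ± 5.38) and Igf2 (38.4 ± 11.5), and each of these ranges overlapped the next. Igf2 was above Igf1 per length in every library.

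**Figure D3:**
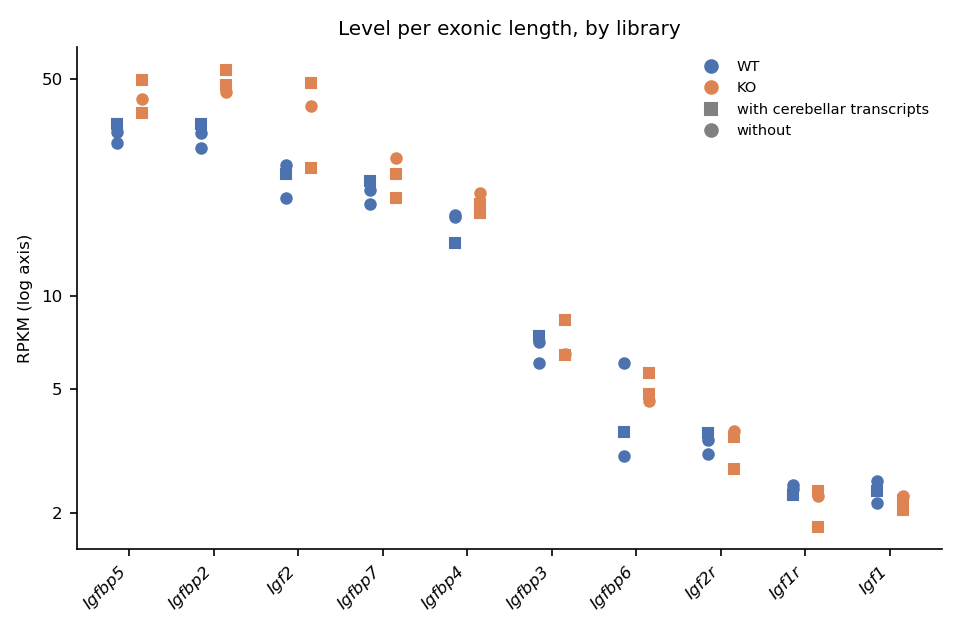
Level per exonic length in RPKM (y axis, log scale) of each gene in each library, ordered by the WT mean. Igfbp5 and Igfbp2 lie highest in WT at 33.6 and 33.0 RPKM, and Igf1r and Igf1 lowest at 2.37 and 2.34 RPKM.

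Levels of Igf2, Igfbp2 and Igfbp5 were set beside markers of the cells that a brain dissection can hold. The summed level of 9 meningeal fibroblast markers ran from 136 to 141 CPM in WT and from 231 to 330.0 CPM in KO. Of these 9 genes, 5 rose (called by edgeR), against 0.241% of all genes tested. For 7 the KO libraries were all above WT, against 8.02% of all genes. The median log2 fold change of the 9 was 0.75, and none was at 0 in any library. Ogn (-0.09) and Foxc1 (0.18) had overlapping groups and were not called. Col1a1, Col1a2 and Col3a1 made up most of the sum in every library, so ratios to it rest mostly on these collagen genes. KO replicate 1 had the highest meningeal sum and the highest Igf2, Igfbp2 and Igfbp5, and KO replicate 3 the lowest meningeal sum, Igf2 and Igfbp5 of the KO libraries. Igfbp2 was instead lowest in KO replicate 2 (83.5 CPM, against 88.0 CPM in KO replicate 3). Per 100 CPM of meningeal markers, Igf2 stood at 86.7 to 107 CPM in WT and 64.0 to 90.8 CPM in KO. On the same scale Igfbp2 stood at 39.1 to 48.4 in WT and 29.9 to 38.2 in KO, and Igfbp5 at 132 to 158 and 90.0 to 101. On this scale the groups overlapped for Igf2, and Igfbp2 and Igfbp5 were lower in every KO library. In bulk tissue, more cells of a type and more RNA per cell cannot be told apart, and the part of the meningeal difference in these results was not tested.

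**Figure D4:**
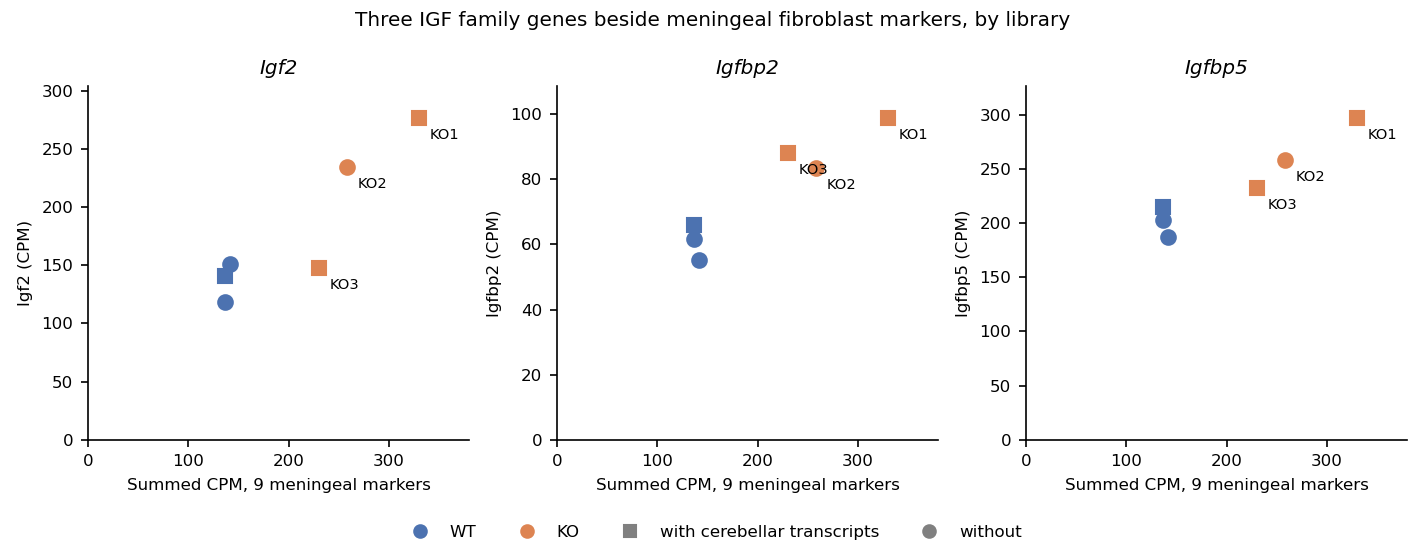
Level in CPM of Igf2, Igfbp2 and Igfbp5 (y axes, from 0) against the summed CPM of 9 meningeal fibroblast markers (x axis) in each library. The WT libraries sit together at 136 to 141 on the x axis, and the KO libraries lie to the right at 231 to 330.0, highest for KO replicate 1.

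The summed markers of choroid plexus, astrocytes, microglia and vessels overlapped between the groups. For the counts that follow, edgeR called 1.2% of all genes tested, and 9.67% had an unadjusted p under 0.05. DESeq2 called 1.89% of the genes in its test, and the replicate block 3.41%. The 7 choroid plexus markers summed to 411 to 582 CPM in WT and 538 to 951 CPM in KO, which overlapped, with 6 of 7 values positive and 0 called by edgeR or DESeq2 (2 at an unadjusted p under 0.05). Ttr alone stood at 392 to 565 CPM in WT and 511 to 923 CPM in KO, so the sum is mostly the level of this gene. With the replicate block 1 of the 7 was called, Ttr (0.50, adjusted p = 0.0144), the transthyretin gene, with log2 pair ratios of 0.78, 0.71 and -0.01. Its part in the Igf2 result was not tested. The 9 astrocyte markers summed to 4294 to 4463 CPM in WT and 3712 to 4461 CPM in KO, with 0 called by either tool and 1 at an unadjusted p under 0.05. Per 100 CPM of astrocyte markers Igfbp2 was 1.27 to 1.48 CPM in WT and 2.07 to 2.37 CPM in KO, higher in every KO library. Per 100 CPM of choroid plexus markers, which is mostly a ratio to Ttr, the groups overlapped for all 3 genes. Igfbp2 stood at 10.2 to 16.0 in WT and 8.78 to 16.4 in KO, Igf2 at 20.4 to 34.3 and 24.7 to 39.2, and Igfbp5 at 34.5 to 52.4 and 27.2 to 43.3. Microglia, a source of Igf1, had marker sums of 306 to 382 CPM in WT and 342 to 391 CPM in KO. Of the 8 microglia markers, 0 were called by edgeR or DESeq2 or had an unadjusted p under 0.05. Endothelial markers summed to 144 to 148 CPM in WT and 138 to 154 CPM in KO, also with 0 of 8 called by edgeR or DESeq2 or at an unadjusted p under 0.05. Markers of pericytes and smooth muscle summed to 122 to 147 CPM in WT and 144 to 156 CPM in KO, with 0 of 8 called by edgeR or DESeq2 and 3 at an unadjusted p under 0.05. In contrast edgeR called all 8 oligodendrocyte markers lower (median log2 fold change -2.65). It called 2 of the 5 precursor markers lower, Pdgfra (-0.80) and Olig2 (-0.90), against 0.958% of all genes tested. Olig2 is also the gene that drives Cre in this model, and the part of the Cre allele in its level was not tested. With the block 4 of the 5 precursor markers were called lower, against 3.41% of all genes called in either direction. For 4 of the 5 the KO libraries were all below WT, against 7.99% of all genes tested.

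These genes were also examined for the cerebellar difference between libraries. With genotype in the model, 0 of the 10 differed between libraries with and without cerebellar transcripts in edgeR. Only 0.729% of all genes did, so 0 of 10 cannot show that cerebellar content had no effect. Of the 10, 1 had an unadjusted p under 0.05, Igfbp4, which was lower with cerebellar transcripts (-0.23). Its KO over WT value was 0.23 without the cerebellum term and 0.31 with it (edgeR adjusted p = 0.523 and 0.215). With the cerebellum term 1 of the 10 was called between genotypes, Igfbp2 at 0.51 (adjusted p = 0.0275), against 1.38% of all genes tested, and within the libraries without and with these transcripts its value was 0.51 and 0.50. The values in the same subsets were 0.80 and 0.58 for Igf2 and 0.41 and 0.29 for Igfbp5. Each of these subsets has a single library of one genotype, which is assumed to vary like the others.

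Beyond the 10 genes, 50 other genes of the pathway were examined, of which 45 were tested. By edgeR 0 were called, by DESeq2 1 (Grb14), and 8 had an unadjusted p under 0.05, against 9.67% of all genes tested. With the block 4 were called, 2 in each direction, against 3.41% of all genes. The median log2 fold change of the 45 was -0.03. Igfbpl1, a relative of the binding proteins expressed in young neurons, stood at 10.9, 5.14 and 3.67 CPM in WT and 12.6, 9.20 and 12.3 CPM in KO. The groups overlapped because of WT replicate 1. Its value was 0.80 (SE 0.330, edgeR adjusted p = 0.457, and 0.0283 with the block). The block's call ended with the cerebellum term added (0.50, adjusted p = 0.275) and with length-adjusted offsets (0.0554). The fit with the added cerebellum term leaves out pair 3 in effect, and the log2 ratios of pairs 1 to 3 were 0.22, 0.84 and 1.75. Leaving out each library gave 0.50 to 1.37, the highest without WT replicate 1, where the edgeR fit called it (adjusted p = 0.0268). The insulin receptor gene Insr, whose product can pair with the IGF-1 receptor, had a value of -0.07 (SE 0.131).

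Of 27 adaptor and kinase genes below the receptor, 10 had positive and 17 negative values, with a median of -0.06. Grb14, an adaptor that inhibits the insulin receptor, had the smallest p of this list. It stood at 32.0, 30.2 and 32.5 CPM in WT and at 19.8, 25.1 and 20.01 CPM in KO, with no overlap. Its value was -0.54 (SE 0.128, edgeR adjusted p = 0.0952), and it was called with the block (adjusted p = 0.0125) and by DESeq2 (0.0171). The insulin receptor substrate genes Irs1 and Irs2 had values of -0.06 (SE 0.196) and -0.39 (SE 0.244). Irs2 was at -1.01 in the libraries without cerebellar transcripts, and at 0.026 in those with them. These values rest on a single KO library (replicate 2, 10.9 CPM) and a single WT library (replicate 1, 17.6 CPM). In KO replicates 1 and 3 Irs2 stood at 22.9 and 13.1 CPM. Leaving out each library moved the Irs2 value between -0.77 (without KO replicate 1) and -0.18 (without KO replicate 2). Irs1 shares 30.9% of its exonic sequence with Gm9747 on the opposite strand. Irs4, a further receptor substrate named after its values were seen, was also called with the block (0.74, adjusted p = 0.0125) but not without it (edgeR adjusted p = 0.255).

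**Figure D5:**
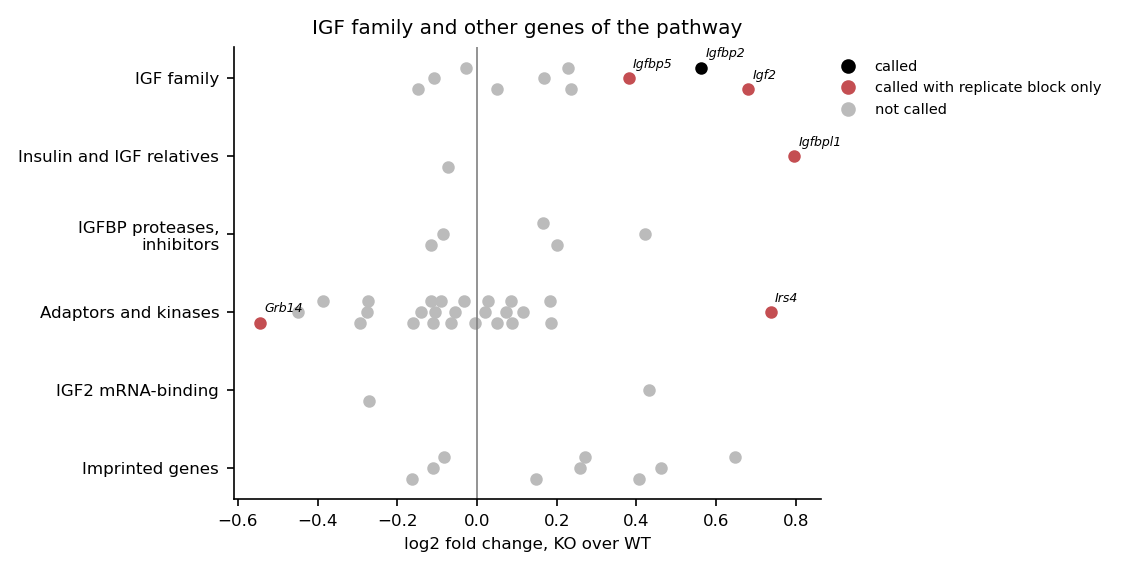
Log2 fold change of KO over WT (x axis) of the tested genes in 6 lists, 1 point per gene and 1 pathway gene not shown, in black where called, in red where called only with the replicate block. Igfbp2 is the only black point, and the adaptor list spreads on both sides of 0 with a median of -0.06.

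Of 5 genes for binding protein proteases and their inhibitors, 0 were called by edgeR or DESeq2 or had an unadjusted p under 0.05. The matching shares of all genes were 1.2%, 1.89% and 9.67%. Htra1, a secreted protease, had the smallest p (141 ± 6.05 CPM in WT and 159 ± 11.5 in KO, SD, n = 3, log2 fold change 0.17, edgeR adjusted p = 0.584), with all KO libraries higher. Pappa, at 1.61 ± 0.95 CPM in WT and 1.52 ± 0.252 in KO, had a value of -0.09 (SE 0.451), which became 0.0082 with the block. Of the IGF2 mRNA-binding proteins, Igf2bp3 had a value of 0.43 (SE 0.254) and Igf2bp2 of -0.27 (SE 0.344), while Igf2bp1 had 2 counts in all WT libraries together and 2 in all KO libraries. Malsu1 overlaps 18.7% of the Igf2bp3 exonic sequence on the opposite strand.

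H19 is the imprinted RNA gene next to Igf2, 72.6 kb away, and the pair share an imprinting control region. H19 stood at 7.06, 2.97 and 3.37 CPM in WT and 8.88, 5.17 and 6.99 CPM in KO, with overlapping groups and high values in the libraries with cerebellar transcripts. Its value was 0.65 (SE 0.327, edgeR adjusted p = 0.558), or 0.42 with the cerebellum term. Of 9 imprinted genes tested 0 were called by edgeR or DESeq2, against 1.2% and 1.89% of all genes in those tests. Of the 9, 6 were positive, and 3 had an unadjusted p under 0.05 in edgeR, against 9.67% of all genes tested. Ndn, which encodes necdin of neurons, had the smallest p (0.26, SE 0.0956, adjusted p = 0.393).

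The 3 genes most like Igfbp2 across the 6 samples, among 12471 others whose mean was 5 CPM or more, were Mapk12 (Pearson r = 0.99 on log2 CPM), a stress kinase gene, Rdh10 (0.989), which makes retinal for retinoic acid synthesis, and Col13a1 (0.988), a transmembrane collagen. In all 38 genes had r above 0.95. The points share the libraries and the split between groups, so r describes likeness only. Of these 3 genes Col13a1 was called (log2 fold change 2.3, SE 0.270, edgeR adjusted p = 0.00135), and Mapk12 (0.48) and Rdh10 (0.46) were not.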

How the data were processed

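RNA-seq of 3 WT and 3 KO mouse brain samples was analysed from the tables the authors deposited: a table of raw read counts by gene symbol, and a normalized signal that equals the count divided by 1 factor per library. Per the labels' protocols, libraries were made with the Illumina mRNA TruSeq protocol and read as 150 bp pairs. Per the submitters' processing notes, STAR 2.3.0e, featureCounts 1.5.0 and the mm10 build were used, with Trimmomatic 0.32, FastQC 0.11.2 and DESeq2. The strand setting and the handling of multi-mapping reads are not given in the sources used here, so reads of overlapping genes may be shared.

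KO was compared with WT in R 4.3.3 with edgeR 4.0.16 (glmQLFit, glmQLFTest) on the deposited counts, with filterByExpr, TMM factors, no covariate and 4 residual degrees of freedom. The test also draws on the spread of all genes, which adds prior degrees of freedom to its p-values. The 95% intervals use the 4 residual ones alone, so intervals and p-values need not match. P-values were adjusted by Benjamini-Hochberg over all 16592 tested genes and called under 0.05. The fit was tested on simulated data. Exonic lengths and coordinates are from GENCODE M21, which matched 23576 of 31276 symbols, and promoter windows are from RefSeq. The members and gene lists were chosen with earlier results of these data known.

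Named were the 10 members, pathway genes that were called or had the smallest p of their list, Insr, Irs1, Irs2, H19, Igf2bp2 and Pappa, and the 3 genes best correlated with each called member. The result of 1 pathway gene is not reported here.

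Same-numbered samples deviated together from their group means (r of 0.351, 0.334 and 0.177), all above 0.1. Among samples with unlike numbers, WT replicate 3 with KO replicate 2 also passed this limit (0.1002). The other such values ran from -0.381 to 0.0284. The numbers were treated as pairs. This pairing comes from the same counts that the block then tests, not the labels, and the block leaves 2 residual degrees of freedom before prior ones are added. Deviations from a mean of 3 samples are tied to each other, so the r values are not independent. Replicates 1 and 2 also matched between groups in cerebellar transcripts, and replicate 3 did not. Pairs of libraries within a group differed by 6.75 to 27.4 times the chi-square of counting noise, so none was treated as a duplicate. Alternatives covered scaling, filters, DESeq2 1.42.0, limma 3.58.1 (voom, and log2 of 1 plus the deposited signal), robust dispersion, the block, terms for cerebellum and sex, offsets adjusted for length or GC content, and leaving out libraries.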

Additional observations from a re-analysis of the deposited data

How the results depend on the processing

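The number of genes called was 199 (40 higher), and 315 with DESeq2, 566 with the replicate block, 535 with the block and the cerebellum term, 480 with the block and length-adjusted offsets, 687 with the block and GC-adjusted offsets, 129 with the sex term and 1254 in the libraries without cerebellar transcripts. Leaving out each library gave 100 (without WT replicate 3) to 305 (without KO replicate 1). Of the 10 IGF family genes, 1 was called; 2 were without a filter or with DESeq2 (Igf2 and Igfbp2), and 3 in each fit with the replicate block and in the libraries without cerebellar transcripts (Igf2, Igfbp2 and Igfbp5). None (0) was called by edgeR with the sex term or length-adjusted offsets (3 at an unadjusted p under 0.05 in each) or in the libraries with cerebellar transcripts (2), and leaving out each library gave 0 to 1. The replicate block also called Prmt5, Igfbpl1, Grb14 and Irs4 and changed no other call of an IGF family or pathway gene named here. The cause of these changes was not tested.

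Changes of sign affected 8 genes that edgeR did not call. Igf2r was at 0.0014 with total counts only, 0.024 with cerebellum term and block, 0.033 with length-adjusted offsets, 0.031 with these and the block, 0.17 without cerebellar libraries, and -0.11 to 0.086 leaving out each library. Igfbp3 was at -0.011 with the cerebellum term, -0.057 with that and the block, -0.00041 with length-adjusted offsets and block, -0.025 and -0.0050 in the libraries without and with cerebellar transcripts, and -0.085 to 0.11 leaving out each library. Igfbp7 (-0.060), Irs2 (0.026) and Igf2bp2 (0.052) changed sign in the libraries with cerebellar transcripts, and Igf2bp2 ran from -0.52 to 0.15 leaving out each library. Insr was at 0.045 with cerebellum term and block, 0.012 with length-adjusted offsets, 0.011 with these and the block, 0.034 without cerebellar libraries, and -0.16 to 0.064 leaving out each library. Irs1 was at 0.0051, 0.018 and 0.036 in those last 3 settings and -0.24 to 0.19 leaving out each library. Pappa was at 0.11 with limma-voom, 0.082 with limma on normalized signal, 0.0082 with the block, 0.0016 with length-adjusted offsets, 0.076 with these and the block, 0.018 with GC-adjusted offsets and block, 0.16 without cerebellar libraries, and -0.47 to 0.42 leaving out each library. The 95% intervals given for Igf1, Igf1r and Igf2r show how far 3 samples a group limit these differences.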

Other observations

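Igfbp1, whose gene lies next to Igfbp3 on chromosome 11 in the same tail-to-tail arrangement as Igfbp2 and Igfbp5 (3539 bp apart), was removed by the filter on low counts. It had 0 counts in each WT library and 2, 8 and 4 counts in KO replicates 1 to 3. Set against an assumed floor of 3 counts over the WT group, the KO counts gave a ratio of 4.61. This ratio does not allow for the spread of the KO counts, so it is not a lower limit. In edgeR without a filter its unadjusted p was 0.0111 and its adjusted p 0.332. Igfals, which encodes the subunit that stabilises IGF complexes in blood, had 0 counts in each WT library and 2, 6 and 0 in KO. Its unadjusted p in the same fit was 0.057. These genes were singled out after their values were seen, and counts this low cover few molecules.

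Of the pathway genes beyond the 10, only Igfbpl1 and H19 were looked at for a cerebellar difference, so they were not picked from a screen. Both had higher levels in the libraries with cerebellar transcripts, with log2 differences of 0.86 and 0.88 and genotype in the model. Neither was called (edgeR adjusted p of 0.145 and 0.134, unadjusted 0.00208 and 0.00184). For the 10 IGF family genes the KO against WT difference was also compared between libraries with and without cerebellar transcripts through an interaction term, chosen after seeing the data. The interaction values on the log2 scale ran from -0.47 for Igfbp7 to 0.51 for Igfbp6. Only WT replicate 1 among the WT libraries holds these transcripts, and only KO replicate 2 among the KO libraries lacks them. This comparison therefore cannot show whether the KO against WT difference was the same in both kinds of library.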
